A study of Mus musculus with 8 samples.

Results

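The nuclear receptors described here were a list of 34 genes, chosen by name as members of the superfamily of ligand-regulated transcription factors that are studied in liver, out of the 55487 genes in the count tables. The glucocorticoid receptor and the small heterodimer partner Nr0b2 were left out of the list. All 34 were found by symbol, and 33 of them had enough counts to be among the 13400 genes tested.

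Liver RNA came from 8 male mice fed a Western diet for 12 weeks from 8 weeks of age and killed after a 4-hour fast. The 4 Control mice (154, 159, 181 and 193) were Mc1r fl/fl, with both copies of the gene flanked by loxP sites, and carried no Cre, and the 4 Mc1r LKO mice (141, 156, 157 and 182) carried the same floxed allele together with the Alb-Cre transgene, in which the albumin promoter drives Cre recombinase in hepatocytes. Every mouse thus carried the floxed allele, and the effects of the transgene and of the loss of Mc1r, the melanocortin 1 receptor, cannot be told apart. The comparison asks whether loss of the receptor in hepatocytes changed the mRNA of the nuclear receptors and of the genes they act on. Whole liver was used, so fewer cells of a type and less RNA per cell cannot be told apart either. Counted read pairs numbered 10773151 to 24763375 per mouse. Mc1r itself had 0 counts in all 8 mice, which allows up to 3 counts, or 0.121 to 0.278 CPM depending on the mouse, for counting error only, and so did not check the genotypes. On the first principal component of all tested genes, which held 37.6% of the variance, Mc1r LKO mouse 182 (59.3) and Control mouse 181 (27.8) stood apart from the other 6 mice (-28.2 to -7.03). Where a named gene met limits on its p and fold change with all mice but not with a mouse left out, or the reverse, the left-out values are given.

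Nuclear receptors bind DNA through a pair of zinc fingers and recruit coactivators or corepressors according to the ligand they hold. Many of them bind as heterodimers with a retinoid X receptor to repeats of the hexamer AGGTCA, the half-site of the family, and others bind as monomers or homodimers. In liver they read fatty acids (PPARs), oxysterols (LXRs), bile acids (FXR), drugs and other foreign chemicals (PXR and CAR), retinoids, thyroid hormone and haem, and HNF4A keeps the hepatocyte programme of gene expression.

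The DNA before the start of 5 members is shown for description only, and none of them passed the test between genotypes after adjustment. These are Hnf4a, the member with the highest level, Nr1h4, the bile acid receptor, and Nr2c2, Nr1d2 and Nr2f6, in which the mice of the genotypes did not overlap. The sequences are from RefSeq (build GRCm38.p6), read 5′ to 3′ on the strand of the gene, and cover up to 250 bases before a RefSeq start, without the bases that the annotation of the count tables puts in an exon of the gene. Capitals mark the half-site AGGTCA or its reverse complement TGACCT. For Hnf4a (plus strand) the windows were chr2:163506607-163506807, which lies before the gene, and chr2:163546943-163547154, inside its span. The second begins directly after an exon, 38 bases of which were left out. The bases that follow it were not found in the transcripts checked for the gene, unlike those of the other windows, so its start is less certain. For Nr1h4 (minus strand) the window chr10:89506659-89506908 and for Nr2c2 (plus strand) the window chr6:92092183-92092432 lay inside the annotated span of the gene but in none of its exons. For Nr1d2 (minus strand, chr14:18239128-18239356) and Nr2f6 (minus strand, chr8:71381961-71382202) they lay before the gene.
Hnf4a, upstream start: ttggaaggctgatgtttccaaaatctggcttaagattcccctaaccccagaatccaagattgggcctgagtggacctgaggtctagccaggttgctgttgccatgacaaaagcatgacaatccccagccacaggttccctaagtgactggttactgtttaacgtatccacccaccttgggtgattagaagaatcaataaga
Hnf4a, downstream start: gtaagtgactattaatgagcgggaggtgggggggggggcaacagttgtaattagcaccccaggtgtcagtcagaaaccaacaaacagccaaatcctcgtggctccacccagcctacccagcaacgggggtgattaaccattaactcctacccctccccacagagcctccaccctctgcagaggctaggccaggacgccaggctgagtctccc
Nr1h4: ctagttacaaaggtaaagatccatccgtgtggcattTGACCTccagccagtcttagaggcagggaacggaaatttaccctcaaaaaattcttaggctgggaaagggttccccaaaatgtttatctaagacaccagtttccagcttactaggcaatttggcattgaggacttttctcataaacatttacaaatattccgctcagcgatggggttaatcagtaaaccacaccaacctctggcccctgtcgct
Nr2c2: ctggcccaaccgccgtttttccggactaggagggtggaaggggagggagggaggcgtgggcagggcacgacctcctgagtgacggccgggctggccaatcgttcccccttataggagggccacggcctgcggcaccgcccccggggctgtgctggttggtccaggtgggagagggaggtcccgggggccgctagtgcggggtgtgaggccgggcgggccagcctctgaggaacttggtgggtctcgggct
Nr1d2: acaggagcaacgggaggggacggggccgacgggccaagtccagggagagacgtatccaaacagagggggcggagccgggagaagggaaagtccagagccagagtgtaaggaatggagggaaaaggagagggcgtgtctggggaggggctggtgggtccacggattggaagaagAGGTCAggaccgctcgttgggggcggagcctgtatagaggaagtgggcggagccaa
Nr2f6: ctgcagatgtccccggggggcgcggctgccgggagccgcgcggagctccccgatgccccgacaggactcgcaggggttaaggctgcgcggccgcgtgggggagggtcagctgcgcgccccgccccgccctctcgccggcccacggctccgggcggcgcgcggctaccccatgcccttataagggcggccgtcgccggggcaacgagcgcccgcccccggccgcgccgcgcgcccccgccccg

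Nr1h4 and Nr1d2 each held 1 half-site in these windows, at positions -214 and -77 relative to the start, and the windows of Hnf4a, Nr2c2 and Nr2f6 held none. Among the 250-base windows of all genes, AGGTCA on either strand was found in 14.02% of all 32851 windows and in 10 of 52 member windows, which belonged to 9 of the 33 members matched to RefSeq windows (Nr1d2, Nr1h4, Nr5a2, Nr6a1, Pparg, Rarg, Rxra, Rxrg and Thrb). The E-box CACGTG was present in 6.02% of all 32851 windows and in 3 of 52 member windows, CCAAT in 33.8% of all 32851 windows and in 17 of 52 member windows, and TATAAA in 12.4% of all 32851 windows and in 5 of 52 member windows. The median GC content was 60.4% in member windows and 52.4% in all windows. Of those printed, the full window of Nr2f6 had 82.4% GC and that of Nr1h4 44.4%. These matches describe letters in a short window only, and do not show that a factor binds there.

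Levels are given as FPKM, counts per kilobase of annotated exon relative to the library size, so that genes of different length can be compared, and as CPM, counts relative to the library size alone, where 1 gene is followed across mice. The levels of the nuclear receptors ran from 97.5 FPKM for Hnf4a to 0.163 FPKM for Nr4a2 among the 33 tested members. Hnf4a was highest at 97.5 FPKM (range 78.8 to 149) over the 8 mice, rank 456 of the 13400 genes tested, and its range did not overlap that of any other member. It was followed by Rxra, the common partner of the heterodimers, at 46.9 FPKM (range 40.3 to 56.2), Nr1h4 (FXR) at 44.9 FPKM (range 41.8 to 52.9), Nr1h3 (LXRα) at 36.9 FPKM (range 34.04 to 39.4), Nr2f6 (EAR2, an orphan receptor) at 34.01 FPKM (range 30.6 to 38.7) and Nr1i3 (CAR) at 32.2 FPKM (range 26.7 to 39.9). The ranges of Rxra and Nr1h4 overlapped, and so did those of each pair of neighbours from Nr1h3 down to Ppara. Nr1d1 (REV-ERBα), Nr1i2 (PXR) and Ppara completed the 9 members above 20 FPKM, at 28.9, 28.2 and 23.7 FPKM. The order depends on the annotated exon length, of which 74.9% in Nr1i3 and 54.4% in Nr2f6 is shared with a gene on the opposite strand. The effect of this on the order was not tested. In CPM, without length, Hnf4a was also the highest (471), followed by Rxra (295) and Nr1i3 (142).

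Another 7 members lay between 5 and 20 FPKM (Nr1d2, Nr1h2, Pparg, Nr5a2, Rxrb, Esrra and Rara, from 12.8 down to 5.99), 11 between 1 and 5 FPKM (Rora, Thrb, Thra, Nr2f2, Nr2c1, Rxrg, Nr3c2, Rarg, Nr2c2, Ppard and Rarb, from 4.72 down to 1.22) and 7 below 1 FPKM (Nr6a1, Nr4a1, Esr1, Esrrg, Nr2f1, Nr4a2 and Vdr). In the order of levels, 28 of 33 pairs of neighbours overlapped in their ranges over mice, and the order is separated only after Hnf4a, Nr1h4, Ppara, Rxrg and Nr4a2. The summed level of all members was 440.3 to 522 FPKM per mouse, of which Hnf4a alone made up 17.1 to 28.6%, with the highest share in Mc1r LKO mouse 182. Vdr, the vitamin D receptor, was at the limit of detection, with 0, 2, 0 and 4 counts in Control mice and 1, 0, 3 and 0 counts in Mc1r LKO mice. The exact permutation test, two-sided, gave p = 0.657, and no genotype difference was detectable at this depth.

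**Figure D1:**
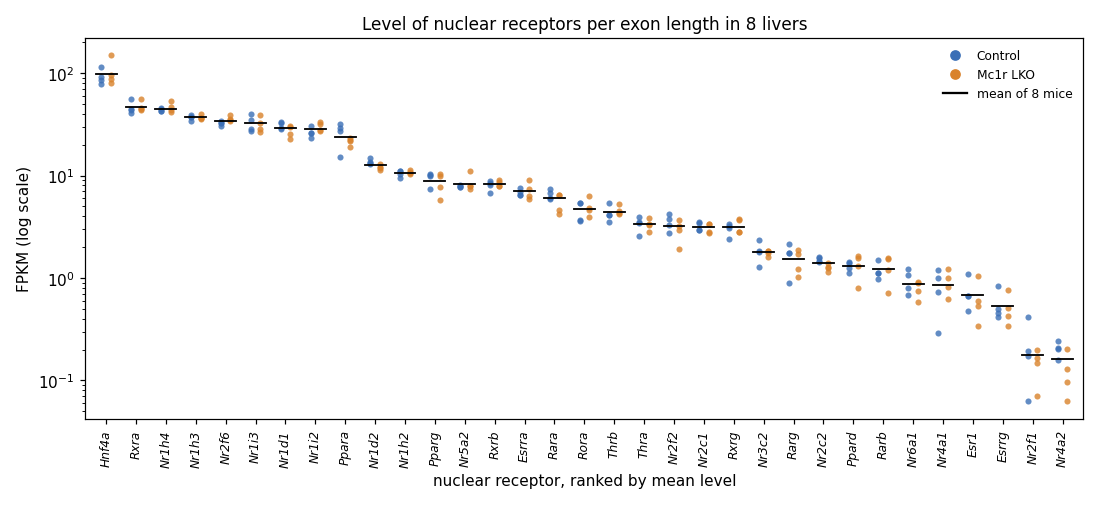
FPKM (log scale) of the 33 tested nuclear receptors in each of 4 Control (blue) and 4 Mc1r LKO (orange) livers, ranked by the mean of the 8 mice (black line); Vdr, with 0 counts in 4 mice, is not drawn. Hnf4a stands alone at 97.5 FPKM, the points of most neighbours overlap, and the spread widens below 1 FPKM.

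Within receptor families, 1 subtype usually held most of the mRNA. Per length, Rxra made up 80.4% ± 2.35 (SD, n = 8 mice) of the retinoid X receptors, with Rxrb at 14.2% ± 1.602 and Rxrg at 5.48% ± 1.09. Esrra made up 92.9% ± 2.12 of the 2 estrogen-related receptors, Nr2f6 90.8% ± 2.27 of the COUP family, Nr4a1 82.0% ± 11.1 of the NR4A pair and Nr1h3 77.7% ± 1.23 of the LXR pair. The peroxisome proliferator-activated receptors divided into 69.2% ± 7.01 Ppara, 26.8% ± 6.63 Pparg and 4.01% ± 1.19 Ppard. Rara held 68.5% ± 4.78 of the retinoic acid receptors, Nr1d1 69.3% ± 2.08 of the REV-ERB pair and Nr2c1 69.3% ± 2.86 of the TR2 and TR4 pair, whereas Thrb (56.8% ± 6.45) and Nr1i3 (53.1% ± 4.64) were closer to an even division with Thra and Nr1i2. In CPM, without length, the means were 142 for Nr1i3 and 72.1 for Nr1i2, and 32.7 for Thrb and 15.4 for Thra. The annotated exon lengths were 4414 and 2553 bases, and 7403 and 4614 bases. For the TR2 and TR4 pair the order reversed without length, at 14.5 CPM for Nr2c1 and 20.8 CPM for Nr2c2. Their annotated exon lengths were 4607 and 14935 bases, and 30.7% of the Nr2c2 length is shared with Mrps25 on the opposite strand. Of the Nr1i3 length, 74.9% is shared with Tomm40l on the opposite strand, and the effect of length on these divisions was not tested. The share of the leading subtype did not pass the test between genotypes in any of the 11 families (two-sided exact permutation test, lowest p = 0.200, 0.864 after Benjamini-Hochberg adjustment over the 11). The largest difference was for Nr4a1, at 76.8% in Control and 87.2% in Mc1r LKO mice, in the family with the fewest counts.

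The spread between mice set what could be seen. The coefficient of variation over the 8 mice had a median of 16.5% for the 33 members and 16.5% for all tested genes, and ran from 4.76% for Nr1h3 to 61.6% for Nr2f1. Counting error alone gives a median of 4.64%, so most of the spread of the well-counted members lay between mice. For Nr4a2, with as few as 5 counts in a mouse, counting error alone gives 32.1% of the 38.3% observed. The 95% interval of the log2 fold change had a median half-width of 0.24 for the 9 members of 20 FPKM or more and 0.79 for the 6 tested members below 1 FPKM.

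No nuclear receptor passed the test between genotypes after adjustment over all genes. With edgeR's quasi-likelihood test and Benjamini-Hochberg adjustment, 0 of 33 members, and 0 of all 13400 genes (0%), had an adjusted p under 0.05, while an unadjusted p under 0.05 was found for 1 member and 901 genes (6.72%). In DESeq2, 17 genes and 0 members had an adjusted p under 0.05. By the unadjusted limits, a p under 0.05 together with a log2 fold change of 0.25 or more in size, 1 of 33 members passed (Nr2c2, lower), beside 5.31% of all genes, 2.66% in the lower and 2.64% in the higher direction. The mice of the genotypes did not overlap in 3 members (Nr2c2 and Nr1d2 lower, Nr2f6 higher in Mc1r LKO), beside 4.16% of all genes. With RLE factors in place of TMM the genotypes were apart in Nr2c2 and Nr2f6 (4.29% of all genes), with no filter on low counts in the same pair (2.97%), with at least 10 counts in every mouse in Nr2c2 and Nr1d2 (4.33%), and with library size only in 0 members (3.75%). Of the members, 16 had a fold change above 0 and 17 below 0 (52.1% of all genes were below 0), with a median log2 fold change of -0.02 against -0.01 for all genes. In 23 members the fold change was smaller than its own standard error. The 95% interval lay within 0.5 of 0 in 18 members and within 1 of 0 in 30, the exceptions to the latter being Nr4a1, Nr2f1 and Nr4a2.

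**Figure D2:**
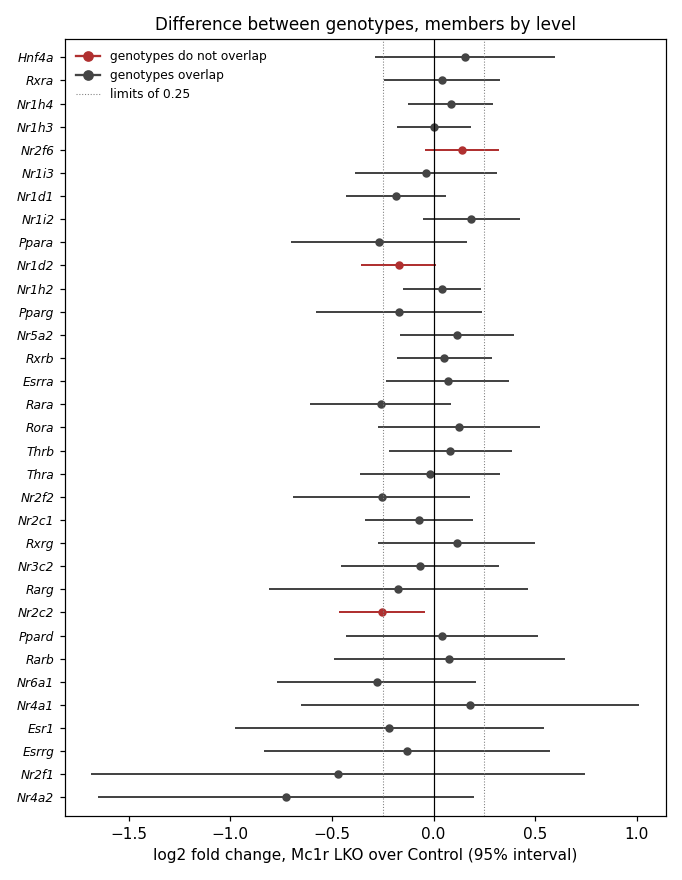
Log2 fold change of Mc1r LKO over Control (points) with its 95% interval (lines) for the 33 tested nuclear receptors, ordered by level, from edgeR's quasi-likelihood test on 4 against 4 mice. Only the interval of Nr2c2 (-0.46 to -0.05) leaves out 0, and the intervals widen toward the members of low level at the bottom.

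Nr2c2 encodes TR4, an orphan receptor that binds AGGTCA repeats as a homodimer or with TR2 (Nr2c1). The gene lies on chromosome 6 from 92091390 to 92174294 of GRCm38. Here and in what follows values per mouse are given in the order 154, 159, 181 and 193 for Control and 141, 156, 157 and 182 for Mc1r LKO. Nr2c2 measured 23.3, 21.3, 23.9 and 22.1 CPM in Control mice and 20.9, 19.2, 18.8 and 17.2 CPM in Mc1r LKO mice. Every Mc1r LKO mouse was below every Control mouse, mouse 182 being the lowest and mouse 141 close to Control mouse 159. The log2 fold change of Nr2c2 was -0.25 (SE 0.09, unadjusted p = 0.0206, adjusted p = 0.734), with a 95% interval of -0.46 to -0.05. The fold change ranged from -0.29 to -0.20 when each mouse was left out in turn, and without Control mouse 154 (unadjusted p = 0.0540), Control mouse 181 (unadjusted p = 0.0596), Mc1r LKO mouse 157 (unadjusted p = 0.0532) or Mc1r LKO mouse 182 (unadjusted p = 0.0573) the limits were no longer met. Nr2c1 was at 14.9 ± 1.44 CPM in Control and 14.2 ± 1.47 CPM in Mc1r LKO mice (SD, n = 4), with a log2 fold change of -0.07 (SE 0.12, adjusted p = 0.938). Exons of Nr2c2 share 30.7% of their length with Mrps25 on the opposite strand, where counting by strand keeps the genes apart, and Mrps25 had a log2 fold change of 0.09 (unadjusted p = 0.527).

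Nr2f6, which can act as a repressor at the sites of other receptors, was the member higher in every Mc1r LKO mouse. Nr2f6 measured 97.9, 100.5, 96.4 and 91.4 CPM in Control mice and 105, 104, 101 and 115 CPM in Mc1r LKO mice. Control mouse 159 and Mc1r LKO mouse 157 differed by only a fraction of a CPM, so the groups were barely separate. For Nr2f6 the log2 fold change was 0.14 (SE 0.08, adjusted p = 0.799), and with the counts scaled by library size alone the genotypes overlapped. The overlapping gene Ocel1, which shares 54.4% of the exon length of Nr2f6 on the opposite strand, had a log2 fold change of 0.32 (unadjusted p = 0.0609). The related Nr2f2 (COUP-TFII) had a log2 fold change of -0.25 (SE 0.19, adjusted p = 0.862) and reached its lowest level in Mc1r LKO mouse 182 (16.7 CPM), without which the log2 fold change was -0.09. Nr2f1 (COUP-TFI) had the largest spread of all tested members. Nr2f1 measured 0.319, 2.14, 0.886 and 0.978 CPM in Control mice and 0.760, 0.845, 1.01 and 0.358 CPM in Mc1r LKO mice. Its highest value was in Control mouse 159 and its lowest in Control mouse 154, so that the extremes lay within a single genotype.

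The clock receptors Nr1d1 and Nr1d2 (REV-ERBα and REV-ERBβ) repress the clock gene Arntl and genes of lipid metabolism, and Rora competes with them for the same sites. Nr1d2 measured 70.9, 69.6, 79.5 and 72.4 CPM in Control mice and 69.3, 65.9, 61.2 and 63.3 CPM in Mc1r LKO mice. All 4 Mc1r LKO mice were below all 4 Control mice, and Mc1r LKO mouse 141 came within a single CPM of Control mouse 159. For Nr1d2 the log2 fold change was -0.17 (SE 0.08, unadjusted p = 0.0590, adjusted p = 0.752), with a 95% interval of -0.35 to 0.01. Nr1d1 measured 87.3, 99.7, 90.05 and 102.2 CPM in Control mice and 93.5, 91.0, 78.3 and 70.6 CPM in Mc1r LKO mice. The lowest values were those of Mc1r LKO mice 157 and 182, the genotypes overlapped, and the log2 fold change was -0.19 (SE 0.11, adjusted p = 0.806). For Rora it was 0.12 (SE 0.18, adjusted p = 0.929), with 82.2 CPM in Mc1r LKO mouse 182, its highest value. Nr1d1 overlaps the 3′ part of Thra on the opposite strand (263 exon bases of each), and Nr1d2, Thrb and Rarb lie in a row on chromosome 14, with 166 kb between Thrb and Nr1d2.

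Of 16 other clock genes, all tested, 2 passed the unadjusted limits. Per1, a repressor of the clock, was higher in Mc1r LKO mice by 0.76 on the log2 scale (SE 0.24, unadjusted p = 0.0105, adjusted p = 0.734). Per1 measured 21.4, 10.1, 24.96 and 18.0 CPM in Control mice and 38.0, 34.6, 23.1 and 31.8 CPM in Mc1r LKO mice. Only Mc1r LKO mouse 157 lay within the Control range. Cry2, another repressor, was lower, with a log2 fold change of -0.26 (SE 0.11, unadjusted p = 0.0432, adjusted p = 0.735), and no longer passed without any single one of Control mice 159, 181 and 193 and Mc1r LKO mice 157 and 182, or without Control mouse 181 and Mc1r LKO mouse 182 together (unadjusted p = 0.209). The median of the clock genes was -0.02, with 8 above and 8 below 0.

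**Figure D3:**
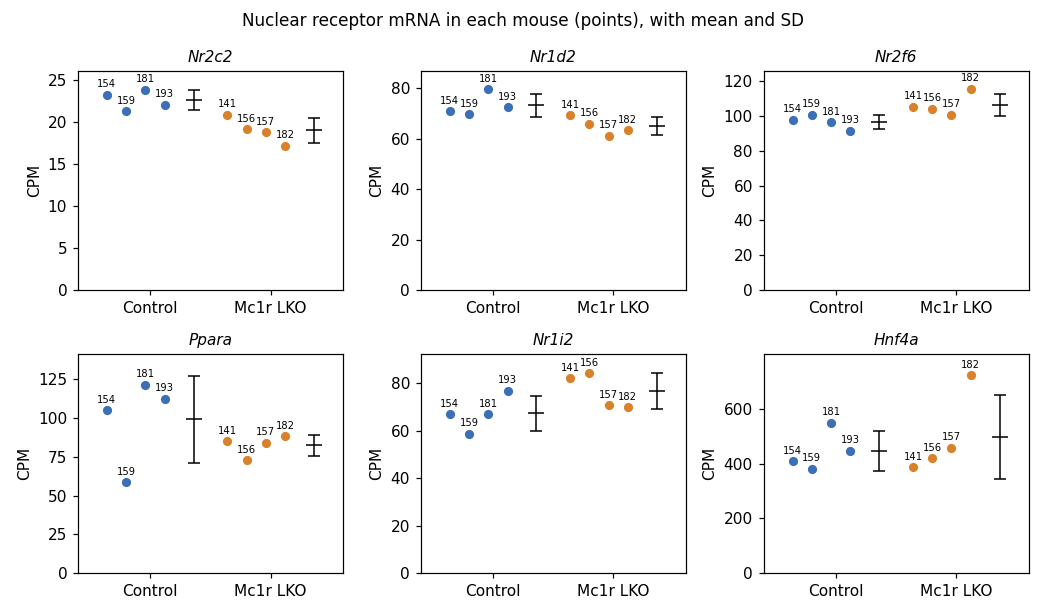
CPM in each mouse (points, labelled by mouse number) with the mean and SD of each genotype (black) for Nr2c2, Nr1d2 and Nr2f6, whose genotypes do not overlap, and for Ppara, Nr1i2 and Hnf4a. The separated genes differ by small steps (Nr2c2 22.6 ± 1.16 CPM in Control and 19.0 ± 1.501 CPM in Mc1r LKO mice), Ppara is spread by Control mouse 159 and Hnf4a by Mc1r LKO mouse 182.

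Ppara, the receptor that switches on fatty acid oxidation and ketogenesis in fasting, was 99.1 ± 27.9 CPM in Control and 82.4 ± 6.78 CPM in Mc1r LKO mice (SD, n = 4). Ppara measured 105, 58.5, 121 and 112 CPM in Control mice and 84.9, 72.6, 84.1 and 88.1 CPM in Mc1r LKO mice. Control mouse 159 was the lowest of all 8, while the other 3 Control mice were above all 4 Mc1r LKO mice. Ppara had a log2 fold change of -0.27 (SE 0.19, adjusted p = 0.856) with a 95% interval of -0.70 to 0.16. Without Control mouse 159 it was -0.44 (unadjusted p = 0.00162, adjusted p = 0.502 by edgeR) and would have met the unadjusted limits. Mouse 159 had the fewest counts (10773151) and stood apart on the second principal component of all genes (40.5); their part in its Ppara value was not tested.

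Of 18 PPARA targets, 17 were tested, 8 with a fold change above 0 and 9 below, with a median of -0.00283. The 3 that passed the unadjusted limits were all higher in Mc1r LKO mice. Angptl4, a secreted inhibitor of lipoprotein lipase, showed no overlap of the genotypes. Angptl4 measured 126, 94.8, 88.8 and 129 CPM in Control mice and 170.1, 172, 184 and 173 CPM in Mc1r LKO mice. The log2 fold change of Angptl4 was 0.67 (SE 0.13, unadjusted p = 0.000365, adjusted p = 0.734), and the adjusted p in DESeq2 was 0.00321. Acot1, an acyl-CoA thioesterase of the cytosol, had a log2 fold change of 0.60 (SE 0.13, unadjusted p = 0.00103, adjusted p = 0.734), and the adjusted p in DESeq2 was 0.0484. Acot1 measured 18.9, 12.8, 14.1 and 17.2 CPM in Control mice and 22.7, 22.4, 26.7 and 24.1 CPM in Mc1r LKO mice. These groups did not overlap either, although mice 154 and 156 came close. Cyp4a14, a fatty acid hydroxylase, had a log2 fold change of 0.88 (SE 0.36, unadjusted p = 0.0336, adjusted p = 0.734). Cyp4a14 measured 584, 179.8, 291 and 237 CPM in Control mice and 757, 641, 657 and 325 CPM in Mc1r LKO mice. The genotypes overlapped for this gene, since Control mouse 154 was high and Mc1r LKO mouse 182 low. Without Control mouse 193 the value was 0.76 (unadjusted p = 0.0840), and the limits were also not met without Control mouse 159 or 181 or Mc1r LKO mouse 141, 156 or 157.

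Pparg, which drives lipid storage in adipocytes and is raised in fatty liver, had a log2 fold change of -0.17 (SE 0.18, adjusted p = 0.907). Pparg measured 29.2, 30.4, 30.1 and 22.0 CPM in Control mice and 30.2, 29.3, 22.9 and 17.0 CPM in Mc1r LKO mice. Control mouse 193 and Mc1r LKO mice 157 and 182 were low, and without Control mouse 181 and Mc1r LKO mouse 182 the fold change was 0.02. None of its 9 tested targets in steatotic liver (10 listed) passed the limits, 7 had a fold change below 0, and the median was -0.18. The gene with the smallest p was Cidea, a protein of the lipid droplet. Cidea measured 37.9, 94.7, 14.8 and 42.6 CPM in Control mice and 10.9, 28.0, 17.7 and 0.409 CPM in Mc1r LKO mice. The log2 fold change of Cidea was -1.73 (SE 0.79, unadjusted p = 0.0531, adjusted p = 0.745), over a range within Control mice from 14.8 to 94.7 CPM. Cidea met the unadjusted limits without Control mouse 181 (-2.03, unadjusted p = 0.0266), Mc1r LKO mouse 156 or Mc1r LKO mouse 182, whereas without Control mouse 159 it was -1.16 (unadjusted p = 0.180). Without Control mouse 181 and Mc1r LKO mouse 182 together, both Cidea (-1.61, unadjusted p = 0.00241) and Cidec, another droplet protein gene, named after its values were seen (-0.32, unadjusted p = 0.0401) met them. Ppard had a log2 fold change of 0.04 (SE 0.21, adjusted p = 0.985) and was lowest in Mc1r LKO mouse 141 (6.01 CPM).

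Nr1h3 (LXRα), which answers to oxysterols and raises cholesterol efflux and lipogenesis, had the smallest coefficient of variation of the members. Nr1h3 measured 85.6, 97.9, 93.3 and 94.0 CPM in Control mice and 89.3, 90.6, 92.2 and 99.0 CPM in Mc1r LKO mice. The ranges of the genotypes largely coincided, the log2 fold change was 0.00 (SE 0.08, adjusted p = 0.998), and the 95% interval of -0.18 to 0.18 corresponds to between 0.885 and 1.13 times the Control level. Nr1h2 (LXRβ) had a log2 fold change of 0.04 (SE 0.08, adjusted p = 0.955) with an interval of -0.15 to 0.23. None of 10 LXR targets passed the limits, 7 were below 0 and the median was -0.06, the smallest p being that of the cholesterol exporter Abcg1, with a log2 fold change of -0.26 (SE 0.29, adjusted p = 0.907).

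Nr1h4 (FXR), which senses bile acids and restrains their synthesis, also varied little, with a coefficient of variation of 8.02%. Nr1h4 measured 97.2, 105, 103 and 97.0 CPM in Control mice and 122, 101, 106 and 96.3 CPM in Mc1r LKO mice. Only Mc1r LKO mouse 141 stood above the rest, and mouse 182 of the same genotype was the lowest. Nr1h4 had a log2 fold change of 0.08 (SE 0.09, adjusted p = 0.907), with an interval of -0.12 to 0.29. Of 8 FXR targets tested (9 listed) none passed the limits, 5 were below 0 and the median was -0.05. The smallest p was that of Abcb4, the phospholipid transporter of the bile canaliculus, with a log2 fold change of -0.18 (SE 0.11, adjusted p = 0.821). Nr5a2 (LRH-1), which works with FXR on the bile acid enzymes, had a log2 fold change of 0.12 (SE 0.12, adjusted p = 0.907) and measured 64.9 CPM in Mc1r LKO mouse 182 against 43.1 to 47.5 CPM in the other 7. None of its 5 targets passed, with a median of -0.06.

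Nr1i2 (PXR) and Nr1i3 (CAR) induce the enzymes that oxidise drugs and other foreign chemicals. Nr1i2 measured 66.9, 58.8, 67.0 and 76.8 CPM in Control mice and 82.1, 84.2, 70.8 and 70.0 CPM in Mc1r LKO mice. Only Control mouse 193 lay within the Mc1r LKO range, and the log2 fold change was 0.19 (SE 0.11, adjusted p = 0.799). Without that mouse it was 0.26 (unadjusted p = 0.0396, adjusted p = 0.985 by edgeR) and met the unadjusted limits. Nr1i3 measured 120.2, 154, 125 and 176 CPM in Control mice and 173, 118, 127 and 143 CPM in Mc1r LKO mice. High and low mice were found in both genotypes, and the log2 fold change was -0.04 (SE 0.15, adjusted p = 0.982). Exons of Nr1i3 share 74.9% of their length with Tomm40l on the opposite strand. Of 11 tested PXR and CAR targets (12 listed), 9 had a fold change below 0, the median was -0.18, and 1 passed the limits. This was Cyp3a11, the main mouse counterpart of human CYP3A4, which was lower, with a log2 fold change of -0.61 (SE 0.23, unadjusted p = 0.0235, adjusted p = 0.734). Cyp3a11 measured 2399, 3063, 3275 and 3088 CPM in Control mice and 2794, 2187, 1526 and 1246 CPM in Mc1r LKO mice. Mice 157 and 182 were the lowest, the genotypes overlapped, and with mice 181 and 182 left out it was -0.39 (unadjusted p = 0.0893). The limits were also not met without Control mouse 181 (unadjusted p = 0.0537) or Mc1r LKO mouse 157 (unadjusted p = 0.0711) alone.

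Hnf4a, the member with the highest level, was 446 ± 73.7 CPM in Control and 496 ± 153 CPM in Mc1r LKO mice (SD, n = 4). Hnf4a measured 408, 380.3, 549 and 446 CPM in Control mice and 386, 419, 458 and 721 CPM in Mc1r LKO mice. Mc1r LKO mouse 182 was the highest and Control mouse 181 the next, and the other 6 mice lay between 380.3 and 458 CPM in both genotypes. The log2 fold change of 0.15 (SE 0.20, adjusted p = 0.920) became -0.08 without mouse 182. Among 12 tested HNF4A targets (13 listed), 9 had a fold change above 0, the median was 0.14, and none passed the limits. Apoc3, an apolipoprotein of triglyceride-rich lipoproteins, had the smallest p, with a log2 fold change of 0.23 (SE 0.10, unadjusted p = 0.0478, adjusted p = 0.740), below the limit of 0.25. It met both limits without Control mouse 159 (0.32, unadjusted p = 0.00822) or Mc1r LKO mouse 157 (0.27, unadjusted p = 0.0466).

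Among the retinoid X receptors, the log2 fold change was 0.04 (SE 0.13, adjusted p = 0.972) for Rxra, 0.05 (SE 0.10, adjusted p = 0.948) for Rxrb and 0.11 (SE 0.17, adjusted p = 0.933) for Rxrg. Rxra measured 254, 283, 275 and 353 CPM in Control mice and 289, 276, 279 and 354 CPM in Mc1r LKO mice. Control mouse 193 and Mc1r LKO mouse 182 were the highest and the other 6 lay below them. Rara had a log2 fold change of -0.26 (SE 0.15, adjusted p = 0.810), and its lowest values, 18.4 and 20.2 CPM, were in Mc1r LKO mice 182 and 141. Rarb and Rarg had log2 fold changes of 0.08 and -0.17, with intervals of -0.49 to 0.64 and -0.81 to 0.46. For Rarg the value was -0.38 without Control mouse 181 and -0.000194 without Control mouse 193. None of 8 tested genes of retinoid response and handling (12 listed) passed, and their median was 0.09. The smallest p was that of Cyp26a1, which degrades retinoic acid, with a log2 fold change of 0.56 (SE 0.27, adjusted p = 0.763) and 21.4 CPM in Mc1r LKO mouse 156 against 7.23 to 11.5 CPM in the other 7.

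For the thyroid hormone receptors the log2 fold change was 0.08 (SE 0.13, adjusted p = 0.938) for Thrb, the main form in liver, and -0.02 (SE 0.15, adjusted p = 0.992) for Thra. None of their 5 targets passed, the median was -0.02, and the deiodinase Dio1 had the smallest p with a log2 fold change of -0.30 (SE 0.18, adjusted p = 0.822). None of the 4 tested targets of the vitamin D receptor (6 listed) passed either, with a median of 0.11 and the smallest p for Cyp2r1, the vitamin D 25-hydroxylase (0.13, adjusted p = 0.907). Esrra, a regulator of mitochondrial genes, had a log2 fold change of 0.07 (SE 0.13, adjusted p = 0.948). All 7 of its tested targets (8 listed) were above 0, with a median of 0.05, and none passed the limits, the smallest p being that of Cox6c (0.19, unadjusted p = 0.0503).

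The steroid receptors in the list were low. Esr1 measured 9.20, 9.20, 15.1 and 6.56 CPM in Control mice and 4.63, 8.06, 7.31 and 14.3 CPM in Mc1r LKO mice. The estrogen receptor thus varied widely within each genotype, with mice 181 and 182 the highest, and its log2 fold change was -0.22 (SE 0.34, adjusted p = 0.934). Without mouse 182 the value was -0.58 (unadjusted p = 0.0734). Nr3c2, the mineralocorticoid receptor, had a log2 fold change of -0.07 (SE 0.17, adjusted p = 0.965), and the orphan receptors Esrrg and Nr6a1 of -0.13 (SE 0.31, adjusted p = 0.964) and -0.28 (SE 0.22, adjusted p = 0.865).

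Nr4a1 and Nr4a2 are orphan receptors that are induced within minutes to hours of a stimulus. Nr4a1 had a log2 fold change of 0.18 (SE 0.37, adjusted p = 0.957) and was lowest in Control mouse 159, with 11 counts. Nr4a2 measured 0.638, 0.837, 0.990 and 0.815 CPM in Control mice and 0.830, 0.390, 0.525 and 0.255 CPM in Mc1r LKO mice. These are 5 to 20 counts per mouse, the Control mice lay closer together than the Mc1r LKO mice, and the genotypes overlapped through Mc1r LKO mouse 141. The log2 fold change of -0.73 (SE 0.41, adjusted p = 0.799) became -1.04 (unadjusted p = 0.0383, adjusted p = 0.899 by edgeR) without that mouse. None of 16 tested immediate early genes (17 listed) passed the limits. Of these, 14 were above 0 and 2 below (52.1% of all genes were below 0), with a median of 0.27. The smallest p was that of Zfp36, which degrades cytokine mRNAs, with a log2 fold change of 0.32 (SE 0.18, adjusted p = 0.787). Some genes, named after their values were seen, fell below 0 without mice 181 and 182 together. They were Junb (0.54 to -0.01), Egr1 (0.36 to -0.05), Btg2 (0.32 to -0.04), Atf3 (0.27 to -0.11) and Egr2 (0.00 to -0.28). The other genes above 0 stayed above it.

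The spread of the nuclear receptors was uneven over the mice. Each mouse was compared with the mean of the other 3 of its genotype. The median absolute log2 ratio over the 33 members was 0.32 in Mc1r LKO mouse 182 and between 0.13 and 0.21 in the other 7 mice. In mouse 182 the ratio exceeded 0.5 in size in 11 members. Esr1 (1.09), Hnf4a (0.78), Nr4a1 (0.59) and Nr5a2 (0.51) were higher there, and Nr2f1 (-1.09), Rarb (-0.99), Nr4a2 (-0.94), Nr2f2 (-0.76), Esrrg (-0.72), Pparg (-0.69) and Rarg (-0.64) were lower. Mouse 182 held the highest value of 10 members and the lowest of another 10, beside 20.2% and 21.7% of all tested genes.

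In Control mouse 181, 6 members deviated by more than 0.5. They were Esr1 (0.85), Nr4a1 (0.79) and Nr6a1 (0.52) upward and Rarg (-1.06), Nr3c2 (-0.63) and Thra (-0.51) downward. In Control mouse 159 there were 3, Nr2f1 upward (1.44) and Nr4a1 (-1.64) and Ppara (-0.95) downward.

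**Figure D4:**
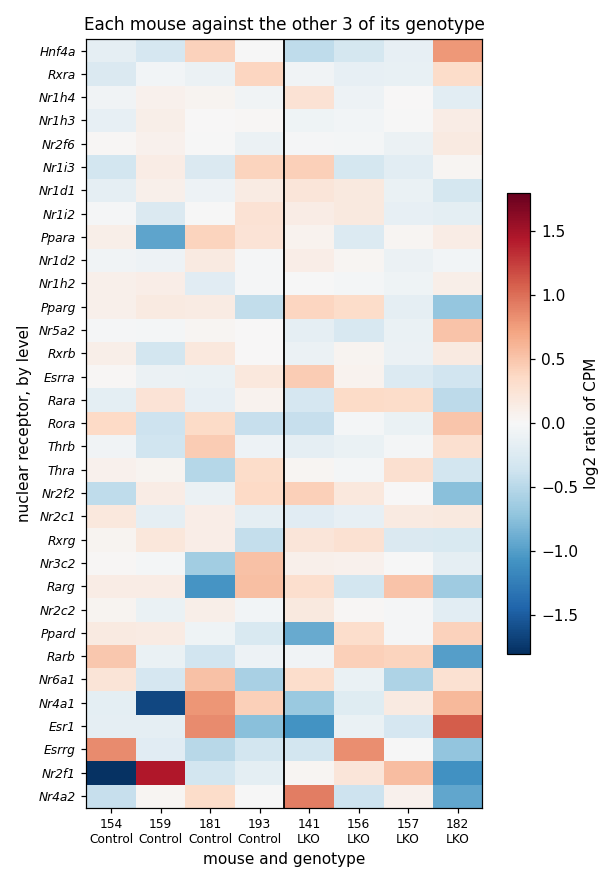
Log2 ratio of the CPM of each mouse to the mean of the other 3 mice of its genotype (red higher, blue lower) for the 33 tested nuclear receptors, ordered by level. The column of Mc1r LKO mouse 182 is the most strongly coloured (median absolute log2 ratio 0.32), Ppara stands out in Control mouse 159, and the strongest colours are in the members of low level at the bottom.

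Nuclear receptors act through cofactors. Of 29 genes listed as cofactors, all of them tested, 1 (3.45%) passed the unadjusted limits, beside 5.31% of all genes. This was Zbtb16 (PLZF), a zinc finger repressor that was listed with the corepressors. Its log2 fold change was 1.00 (SE 0.34, unadjusted p = 0.0145, adjusted p = 0.734). Zbtb16 measured 10.3, 19.6, 7.19 and 24.0 CPM in Control mice and 35.3, 39.6, 24.4 and 23.4 CPM in Mc1r LKO mice. The genotypes overlapped, through Control mouse 193 and Mc1r LKO mouse 182. Of 18 coactivators 12 had a fold change below 0, with a median of -0.09, and of 11 corepressors 8, with a median of -0.09. None of the coactivators passed, and the smallest p was that of Ncoa7, with a log2 fold change of -0.68 (SE 0.32, unadjusted p = 0.0603, adjusted p = 0.753). Of the genes named for the smallest p of their list, 5 besides Cidea and Apoc3 met the unadjusted limits with a mouse left out. They were Ncoa7 without Control mouse 154 (-0.87, unadjusted p = 0.0141), Cyp26a1 without Mc1r LKO mouse 157 (0.74, unadjusted p = 0.0178) or 182 (0.65, unadjusted p = 0.0481), Dio1 without Mc1r LKO mouse 182 (-0.44, unadjusted p = 0.0291), Cox6c without Control mouse 159 (0.25, unadjusted p = 0.0125) and Zfp36 without Control mouse 181 (0.43, unadjusted p = 0.0441) or Mc1r LKO mouse 157 (0.47, unadjusted p = 0.0132). Over all the target lists, 4 of 94 distinct tested genes (4.26%, 106 listed) passed, 3 higher and 1 lower, with a median of -0.00133.

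**Figure D5:**
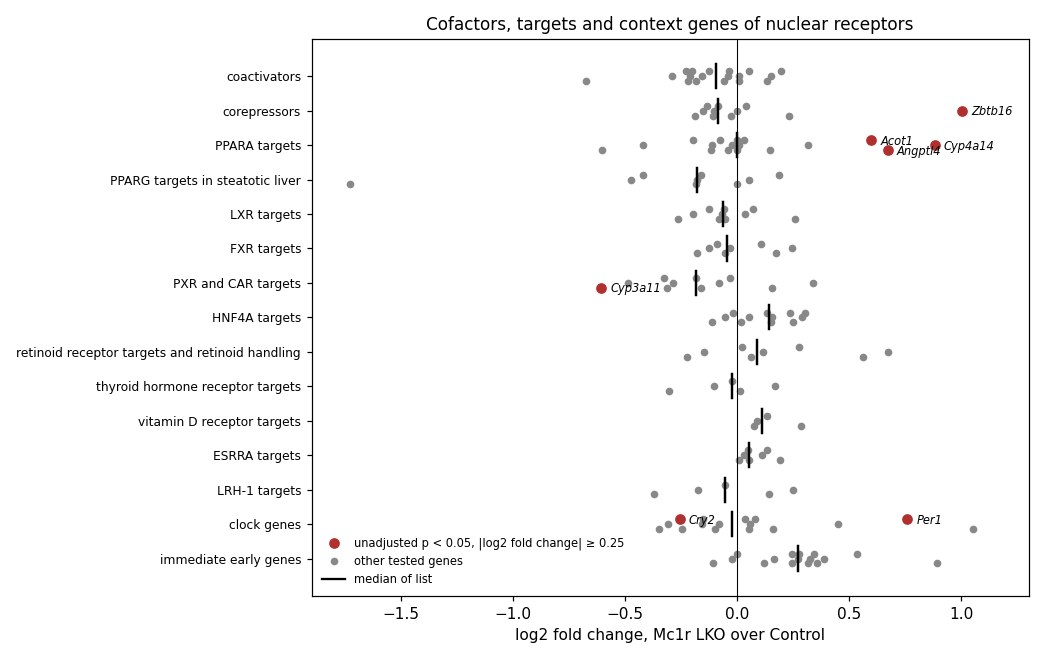
Log2 fold change of Mc1r LKO over Control for the tested genes of each list of cofactors, receptor targets and context genes (points), with the list median (black bar); red points have an unadjusted p under 0.05 and are 0.25 or more from 0. Of 157 points, for 155 distinct genes, 7 are red, 5 of them above 0, and the medians lie between -0.18 and 0.27.

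The make-up of the livers was read from marker genes. Hepatocyte markers summed to 76284 to 94334 CPM in Control and 82072 to 100703 CPM in Mc1r LKO mice, and all 8 had a fold change above 0 (median 0.21), none past the limits. Without Mc1r LKO mouse 182, Cps1 was at -0.10, Serpina1c at -0.00545, Alb at 0.01 and Ass1 at 0.12, on the log2 scale. The remaining markers stayed above 0 with any mouse, or mice 181 and 182 together, left out. Their lowest values were 0.23 for Pck1, 0.11 for Ttr, 0.02 for Cyp2e1 and 0.00055 for Apoa1. The 10 Kupffer cell markers summed to 380.0 to 982 CPM in Control and 254 to 611 CPM in Mc1r LKO mice, and all 10 were below 0 (median -0.44), with Csf1r past the limits at -0.77 (SE 0.32, unadjusted p = 0.0375, adjusted p = 0.734). Without Control mouse 159, 8 of the 10 were nearer to 0, from -0.45 (unadjusted p = 0.146) for Csf1r to -0.01 for C1qb, and the call of Csf1r was also lost without Control mouse 193 or Mc1r LKO mouse 141, 157 or 182. Marco (-1.01 to 0.61) and Timd4 (-0.63 to 0.21) changed sign with a mouse left out. The other lists summed to 267 to 340.3 CPM in Control and 201 to 339 CPM in Mc1r LKO mice (sinusoidal endothelium), 280.3 to 648 CPM in Control and 239.6 to 522 CPM in Mc1r LKO mice (stellate cells) and 74.6 to 174 CPM in Control and 38.7 to 276 CPM in Mc1r LKO mice (cholangiocytes). T and B cell markers (2.83 to 7.33 CPM in Control and 2.79 to 4.51 CPM in Mc1r LKO mice), neutrophil markers (5.55 to 12.2 CPM in Control and 4.72 to 10.0 CPM in Mc1r LKO mice) and adipocyte markers (15.4 to 43.6 CPM in Control and 11.2 to 33.95 CPM in Mc1r LKO mice) were low. Their median log2 fold changes were -0.13 for 10 sinusoidal endothelial markers (with Bmp2 past the limits at 0.36, unadjusted p = 0.0475), -0.09 for 10 stellate cell markers, 0.36 for the 5 tested of 7 cholangiocyte markers, -0.69 for the 3 tested of 8 T and B cell markers, 0.39 for the 3 tested of 6 neutrophil markers (with Csf3r past the limits at -0.77, unadjusted p = 0.0458) and -0.24 for the 2 tested of 5 adipocyte markers, with Lep at 0 in every mouse and Ms4a1, Ly6g, Retnlg, Mpo, Adipoq and Plin1 at 0 in some. The call of Csf3r was lost without Control mouse 159, at -0.31 (unadjusted p = 0.172), or without any single one of Mc1r LKO mice 141, 156, 157 and 182, and that of Bmp2 without any single mouse but Control 154 and Mc1r LKO 157 (for example 0.29, unadjusted p = 0.122 without Control mouse 181). Some nuclear receptors, such as Nr1h3 in Kupffer cells, are known from other liver cells too, and the part of cell make-up in any receptor's value was not tested.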

How the data were processed

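Total liver RNA of 8 mice was sequenced as strand-specific read pairs. The authors trimmed the reads with Trim Galore (0.6.6), aligned them with STAR (2.7.6a) and counted read pairs per gene by strand with featureCounts (2.0.1). Per the file headers, the deposited values were raw counts on the Ensembl annotation (release 102) of GRCm38. 

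Genes were filtered with filterByExpr (minimum count 10, minimum total 15), scaled by TMM and tested with edgeR (4.0.16) in R (4.3.3), using the quasi-likelihood test on 4 Control against 4 Mc1r LKO mice with no covariates. Adjusted p-values were by Benjamini-Hochberg over 13400 genes. FPKM used the annotated exon length. Alternatives were DESeq2 (1.42.0), limma-voom (limma 3.58.1), other scalings and filters, and leaving out mice. Leaving out mice for the named non-members was added after the data were seen. The code was tested on simulated counts. The paper names the filter, TMM and DGA-quik as its tool, and gives its limit once as a p-value, the limit used here, and once as an adjusted p-value. The test within that tool is not given in the sources used here.

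Members, lists and the rule for named genes were chosen with earlier results of these data known. Values in every mouse were given for members with an unadjusted p under 0.05 or genotypes that did not overlap, the 6 highest per length, the 3 most variable and the main lipid, bile acid, drug and clock receptors. From other lists up to 4 genes past the unadjusted limits were named, or else the one with the smallest p, which is not reported here for 1 list. Replicates differed by more than sampling noise (smallest chi-square per degree of freedom 11.9). Limits for a count of 0 cover counting error only, at 10773151 to 24763375 counted pairs per mouse.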

Additional observations from a re-analysis of the deposited data

Results flagged for a closer look

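A single mouse lay far from the other 3 of its genotype, by Dixon's test at the 95% level, in 2 of 66 groups of member values, where chance gives about 3.3. Rxra was high in Mc1r LKO mouse 182 (354 CPM against 276 to 289 CPM in the others), and Pparg was low in Control mouse 193 (22.0 CPM against 29.2 to 30.4 CPM). Neither gene passed the test between genotypes.

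Over all the genes named, 7 of 118 groups were marked in this way, where chance gives about 5.9. Control mouse 159 was low for Abcb4 (346 CPM against 413 to 420.0 CPM) and high for Cox6c (217 CPM against 186 to 189 CPM) and for the neutrophil marker Csf3r (9.20 CPM against 3.35 to 3.67 CPM). Mc1r LKO mouse 182 was high for the hepatocyte marker Serpina1c (3948 CPM against 1350.5 to 1715 CPM), and Control mouse 181 was low for the T cell marker Trbc2 (0.208 CPM against 0.775 to 0.837 CPM). What sets these mice apart was not tested.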

How the results depend on the processing

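Nr2c2 was lower in Mc1r LKO mice under every alternative run, from -0.29 to -0.17. The number of genes past the unadjusted limits moved by more than 1.5 times as follows. With no filter on low counts it was 0 for the nuclear receptors, 7 for the targets and 1 for the clock and immediate early genes, with DESeq2 1 for the latter, with library size only 3 for the cofactors, with at least 10 counts in every mouse 2 for the cofactors, and without Control mouse 181 and Mc1r LKO mouse 182 0 for the nuclear receptors and 4 for the cofactors. With each mouse left out it ranged from 0 to 2 for the nuclear receptors (0 without 154, 181, 157 or 182, and 2 without 159, 193 or 141), from 1 to 6 for the cofactors (6 without 182, 2 without 154 or 193), from 4 to 8 for the targets (8 without 159 or 182) and from 1 to 4 for the clock and immediate early genes (1 without 193, 4 without 182). Of all genes, 4.45 to 6.81% were past the limits with each mouse left out. The share was 5.65% without 159, 4.46% without 193, 4.45% without 141 and 6.81% without 182. With library size only, 25.3% of the genes past the limits were higher in Mc1r LKO mice against 49.8% in the main analysis, and the median of all genes was -0.06. The cause of these changes was not tested.

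Log2 fold changes changed sign with a mouse left out in 17 tested members, none of which passed the test in the main analysis, and the ranges were -0.578 to 0.0580 for Esr1, -0.0522 to 0.153 for Esrra, -0.384 to 0.154 for Esrrg, -0.0783 to 0.271 for Hnf4a, -0.00660 to 0.0800 for Nr1h2, -0.0302 to 0.0354 for Nr1h3, -0.147 to 0.0833 for Nr1i3, -0.783 to 0.0263 for Nr2f1, -0.203 to 0.0999 for Nr3c2, -0.0616 to 0.416 for Nr4a1, -0.0259 to 0.185 for Nr5a2, -0.0691 to 0.227 for Ppard, -0.0399 to 0.281 for Rarb, -0.0121 to 0.226 for Rora, -0.0446 to 0.154 for Rxra, -0.0131 to 0.105 for Rxrb and -0.129 to 0.0841 for Thra. With library size only, the sign also changed for Ppard (-0.00946), Rxra (-0.0128), Nr1h2 (-0.00587) and Nr1h3 (-0.0440), with at least 10 counts in every mouse for Nr1h3 (-0.000986), and without mice 181 and 182 for Ppard (-0.0826), Pparg (0.0234), Rxra (-0.0693), Nr1h2 (-0.0269), Nr1h3 (-0.0207) and Nr5a2 (-0.0127). The hepatocyte marker Serpina1c ranged from -0.00545 to 0.641 with a mouse left out, and Pparg from -0.272 to -0.0199. Two-sided exact tests on 4 against 4 mice cannot go below p = 0.0286. No paired analysis was possible because the sample labels give no litter, cage or other pairing of the mice. Depth limits Vdr, Nr4a2 and Nr2f1 most.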
